A study of Arabidopsis thaliana with 18 samples.

Results

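The transcripts described here encode 4 antioxidant enzymes of Arabidopsis thaliana: the glutathione reductases GR1 (AT3G24170) and GR (AT3G54660), the thylakoid ascorbate peroxidase TAPX (AT1G77490), and the 2-Cys peroxiredoxin AT3G11630. Members were chosen by annotation, as the probe sets of an Affymetrix array that the platform table assigns to these genes. The genes were picked with earlier results of these data known. Each gene had 1 such probe set, which gave 4 members among 22746 tested probe sets. The symbol GR1 also stands for a gamma response gene, AT3G52115; the probe set used here is that of the glutathione reductase by its gene identifier.

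The study measured transcripts in the aerial region of 18-day-old plants after a day of ultraviolet light (UV, UV-B in the series title) or continuous light (CO). The 6 groups were tt4 in UV, tt4 in CO, sng1 in UV, sng1 in CO, wild type (WT) in UV and WT in CO, with 3 plants each, and all were in the Col-0 background. The tt4 mutant is impaired in the synthesis of flavonoids and the sng1 mutant in that of sinapoyl malate; both kinds of compound absorb ultraviolet light. All plants were kept for 17 days at 22 °C on medium with 1% sucrose, in days of 16 h light with 8 h darkness, and 1 plant was used for each array, so the spread between replicates is that between single plants. UV plants received 24 h of ultraviolet light on day 18, and CO plants 8 h of additional light. Whether UV plants also had the additional light, and which mutant alleles were used, is not stated in the labels. A change below means UV against CO.

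Illuminated chloroplasts make superoxide and hydrogen peroxide at the photosystems. Ascorbate peroxidases reduce hydrogen peroxide with ascorbate, which is regenerated in part with glutathione, and glutathione reductase returns oxidised glutathione to its reduced form with NADPH. The 2-Cys peroxiredoxins of the chloroplast reduce peroxides by a separate route that draws on thioredoxins and on the reductase NTRC. GR1 is the cytosolic glutathione reductase, which is also found in peroxisomes, whereas GR is targeted to plastids and mitochondria. TAPX is bound to the thylakoid membrane, and AT3G11630 is a soluble enzyme of the stroma.

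Signals were quantile normalized between arrays, and changes are log2 differences with their standard error (SE) from limma. A probe set was called changed where the p-value, adjusted by Benjamini-Hochberg over all tested probe sets, was under 0.05. The signal of a probe set depends on its probes, so levels are compared between plants and not between genes. Trimmed means were equal on all arrays as deposited, and replicate arrays correlated at 0.972 to 0.991. Of 8 leaf photosynthesis markers 3 were measured, with summed signals of 21378 to 26777 in UV plants and 30489 to 37071 in CO plants. Both measured root markers, of 7 listed, lay at or near the lower limit of 16 (sums of 32 to 64.3 in UV and 32 to 67.1 in CO). The 2 measured of 5 guard cell lineage markers summed to 248 to 349 in UV and 366 to 522 in CO plants, and the 1 measured of 4 trichome markers ran from 16 to 39.3 in UV and from 22.8 to 60.5 in CO. No epidermis, vascular, flower or seed marker was measured. The 3′ to 5′ signal ratio of an actin control, a measure of RNA integrity, averaged 3.04 ± 0.44 in UV arrays and 2.25 ± 0.26 in CO arrays on the log2 scale (SD, n = 9 each). It averaged 1.03 in UV and 0.82 in CO on a second actin control, and 0.40 against 0.56 and 0.08 against -0.0046 on the GAPDH controls; WT_UV 3 was the highest UV array on all 4. The part of these differences in the results below was not tested.

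UV plants had more of the cytosolic GR1 transcript than CO plants in all 3 genotypes, by 3.11-fold to 3.48-fold. That of the thylakoid TAPX was 2.12-fold to 2.41-fold lower in all 3, and those of GR and AT3G11630 changed far less. Of the 4 members, 3 were called in each genotype, where 26.7% of all probe sets were called in tt4, 23.5% in sng1 and 24.4% in WT. In the effect averaged over genotypes all 4 were called, against 42.8% of all probe sets: GR1 and GR rose (20.9% of probe sets rose) and TAPX and AT3G11630 fell (22% fell). With so large a share of the transcriptome called, the count says little about these enzymes, so the sizes are given below. As the members were chosen with earlier results of these data known, sizes and ranks are a description only. Those of GR and AT3G11630 were not extreme: 74.4% and 22.6% of probe sets had a smaller signed change in the averaged effect.

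GR1 stood at 3388, 3832 and 5623 signal units in tt4_UV, against 1639, 879.8 and 1679 in tt4_CO. In sng1 it stood at 4342, 5128 and 4026 in UV, against 1317, 1279 and 1258 in CO. In WT it stood at 3324, 5128 and 4385 in UV, against 1426, 1047 and 1276 in CO. Every UV plant was above every CO plant, a separation in this direction that 7.9% of all probe sets showed. The plants of sng1_CO lay closest together, and tt4_CO 2 was the lowest of all 18. In bulk tissue, more cells that hold a transcript and more of it per cell cannot be told apart, and the same is true of a fall.

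GR1 rose 3.11-fold in tt4 (log2 change 1.64 ± 0.25, limma adjusted p = 0.000501). The rise was 3.48-fold in sng1 (1.80 ± 0.25, adjusted p = 0.000323) and 3.40-fold in WT (1.76 ± 0.25, adjusted p = 0.000387). Averaged over genotypes it was 3.33-fold (1.73 ± 0.15, adjusted p = 1.03e-06), and 98.7% of probe sets had a smaller value, which put GR1 at rank 293 from the highest. In order of mean log2 signal the groups were sng1_UV (12.13 ± 0.18), WT_UV (12.04 ± 0.32), tt4_UV (12.03 ± 0.38), tt4_CO (10.39 ± 0.53), sng1_CO (10.33 ± 0.03) and WT_CO (10.28 ± 0.23; SD, n = 3 each). The step between tt4_UV and tt4_CO passed the test, and no neighbours of the same light differed by limma.

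**Figure D1:**
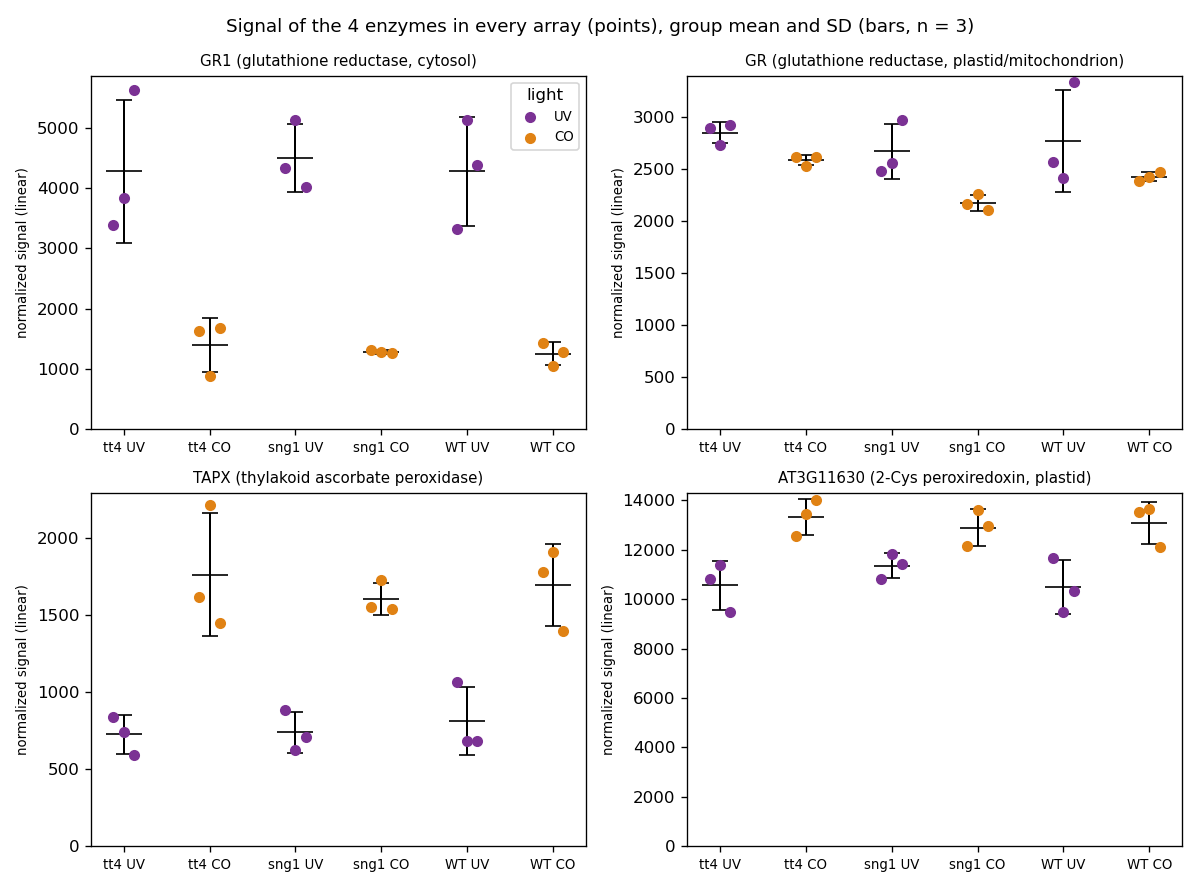
Normalized signal of GR1, GR, TAPX and AT3G11630 (1 panel each) in every plant by group, with UV left of CO in each genotype. Points are arrays, horizontal lines are group means and vertical bars are the SD (n = 3). GR1 lies between 3324 and 5623 in UV plants and between 879.8 and 1679 in CO plants; TAPX lies lower in every UV plant than in any CO plant.

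GR, the plastid and mitochondrial glutathione reductase, stood at 2895, 2733 and 2923 in tt4_UV, against 2618, 2529 and 2617 in tt4_CO. In sng1 it stood at 2478, 2555 and 2975 in UV, against 2165, 2259 and 2104 in CO. In WT it stood at 2570, 2409 and 3332 in UV, against 2381, 2424 and 2469 in CO. The UV and CO plants of WT overlapped, those of tt4 and of sng1 did not, and WT_UV 3 was the highest of all 18. Non-overlapping groups were found for 33.8% of probe sets in tt4 and 41.1% in sng1.

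GR rose by 15% averaged over genotypes (1.15-fold, 0.20 ± 0.06, limma adjusted p = 0.00966), and 74.4% of probe sets had a smaller signed change. Of the single genotypes, sng1 alone passed the test (0.29 ± 0.10, adjusted p = 0.0458), and that call was lost in 14 of the 18 fits that each left out 1 array (0.21 to 0.34). The value was 0.14 ± 0.10 in tt4 (adjusted p = 0.342) and 0.18 ± 0.10 in WT (adjusted p = 0.223). Without WT_UV 3, the array with the highest 3′ to 5′ ratios, the WT value was 0.04. The groups ran from tt4_UV (11.48 ± 0.05) over WT_UV (11.42 ± 0.25), sng1_UV (11.38 ± 0.14), tt4_CO (11.34 ± 0.03) and WT_CO (11.24 ± 0.03) to sng1_CO (11.09 ± 0.05; log2 signal, SD, n = 3 each). Plants of sng1_UV and tt4_CO, neighbours of different light, overlapped.

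TAPX stood at 841, 746 and 594 in tt4_UV, against 1621, 2214 and 1453 in tt4_CO. In sng1 it stood at 887, 626 and 709 in UV, against 1552, 1730.0 and 1541 in CO. In WT it stood at 1068, 684 and 686 in UV, against 1781, 1913 and 1396 in CO. All UV plants were below all CO plants, which held for 7.99% of probe sets in this direction. WT_UV 1 was the highest UV plant, and tt4_CO 2 the highest of all.

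TAPX was 2.41-fold lower in UV than in CO plants of tt4 (-1.27 ± 0.21, limma adjusted p = 0.000855). It was 2.19-fold lower in sng1 (-1.13 ± 0.21, adjusted p = 0.00212) and 2.12-fold lower in WT (-1.08 ± 0.21, adjusted p = 0.00277). Averaged over genotypes it was 2.24-fold lower (-1.16 ± 0.12, adjusted p = 6.37e-06), and 2.16% of probe sets had a lower value (rank 492 from the lowest). From the lowest, the groups were tt4_UV (9.49 ± 0.25), sng1_UV (9.52 ± 0.26), WT_UV (9.63 ± 0.37), sng1_CO (10.65 ± 0.09), WT_CO (10.72 ± 0.24) and tt4_CO (10.76 ± 0.32; log2 signal, SD, n = 3 each). The order of genotypes within a light was not supported by any call. The leaf markers moved the same way, as the summed signals above show: in the averaged effect RCA was at -0.17, PRK at -0.97 and SBPASE at -1.12, all called lower by limma, and the part of this in the TAPX value was not tested.

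AT3G11630, the stromal 2-Cys peroxiredoxin, stood at 10830.3, 11380 and 9468 in tt4_UV, against 12547, 13450 and 13998 in tt4_CO. In sng1 it stood at 10830.3, 11833 and 11408 in UV, against 12137, 13606 and 12944 in CO. In WT it stood at 11658, 9489 and 10347 in UV, against 13524, 13642 and 12095 in CO. The highest UV plant, sng1_UV 2, was just below the lowest CO plant, WT_CO 3, so the lights did not overlap. GR1, TAPX and AT3G11630 were thus separated by light over all plants, as were 15.9% of probe sets in either direction.

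AT3G11630 was 1.22-fold lower in UV averaged over genotypes (-0.28 ± 0.05, limma adjusted p = 0.000404). It fell in tt4 (-0.34 ± 0.09, adjusted p = 0.01) and in WT (-0.32 ± 0.09, adjusted p = 0.0153), while in sng1 the value was -0.18 ± 0.09 (adjusted p = 0.153). The WT call was lost without WT_UV 2 (adjusted p = 0.0704), WT_CO 1 (0.0548) or WT_CO 2 (0.0598). The size depended on the scaling. Averaged over genotypes it was -0.44 with arrays centred on their medians and -0.48 on values as deposited; under the same settings it was -0.60 and -0.59 in tt4, -0.22 and -0.30 in sng1, and -0.49 and -0.55 in WT. The direction was the same each time. From the lowest, the groups were WT_UV (13.35 ± 0.15), tt4_UV (13.36 ± 0.14), sng1_UV (13.47 ± 0.06), sng1_CO (13.65 ± 0.08), WT_CO (13.67 ± 0.10) and tt4_CO (13.70 ± 0.08; log2 signal, SD, n = 3 each). A near copy of this enzyme, encoded by AT5G06290, has no named probe set here, and signal shared between near copies was not tested.

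**Figure D2:**
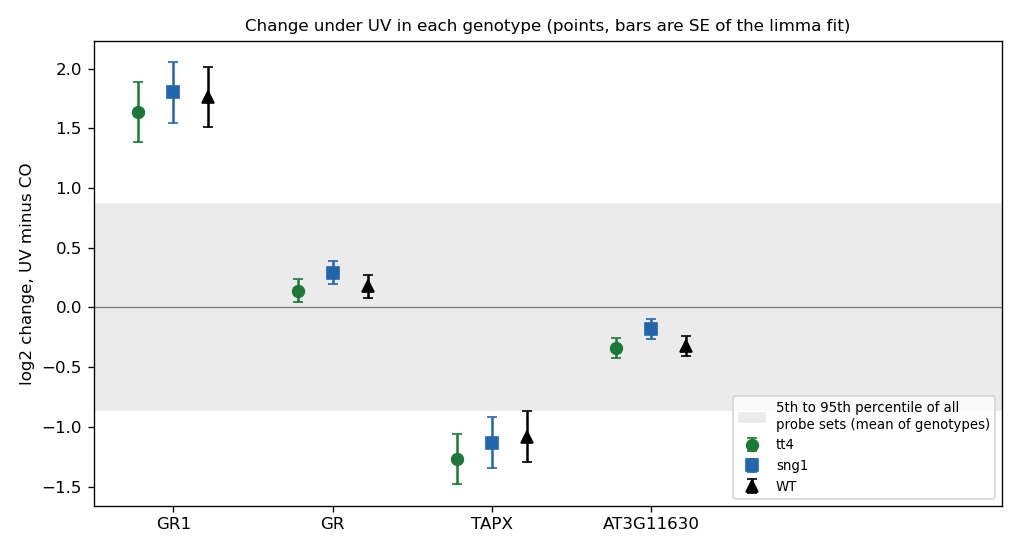
UV minus CO log2 change of each of the 4 transcripts in tt4, sng1 and WT, with bars of 1 SE. The grey band, from -0.86 to 0.87, holds most of all probe sets in the effect averaged over genotypes. GR1 lies at 1.64 to 1.80 and TAPX at -1.27 to -1.08, while GR and AT3G11630 lie between -0.34 and 0.29.

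The contrast of the cytosolic with the plastid enzymes was made within arrays, as the change between lights of the log2 difference of GR1 and each other member. GR1 minus GR ran from 0.23 to 1.09 in UV plants and from -1.52 to -0.64 in CO plants. Its change averaged 1.53 ± 0.16, which is a 2.89-fold shift of the cytosolic against the organellar reductase. GR1 minus AT3G11630 shifted by 2.02 ± 0.18 (4.04-fold), and GR1 minus TAPX by 2.90 ± 0.26 (7.44-fold). No UV plant overlapped with any CO plant in any of the 3 differences, as was so for GR1 alone. The share of all probe sets that would give such a separation when subtracted from GR1 was not counted. Each had p = 0.00025 in an exact two-sided permutation test with light labels permuted within genotypes, the smallest value that test can give, and p = 0.00025 after adjustment over the 3 pairs. As GR1 alone separated the lights, this test largely repeats the rise of GR1 and cannot show a trait of the compartments. Other genes listed as cytosolic did not rise in the averaged effect: ATMDAR2 was at 0.04, GME at -0.06 and AT4G33670 at -0.43.

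By genotype, GR1 minus TAPX shifted by 2.91 in tt4, 2.93 in sng1 and 2.85 in WT, and GR1 minus GR by 1.5 in tt4, 1.51 in sng1 and 1.59 in WT. GR1 minus AT3G11630 shifted by 1.98 in tt4, 1.98 in sng1 and 2.09 in WT. With 3 plants against 3, no single genotype can go below p = 0.1 in the exact test, so these are given without one. The 3 plastid enzymes did not move as 1 group: GR rose, and TAPX and AT3G11630 fell, in the averaged effect.

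**Figure D3:**
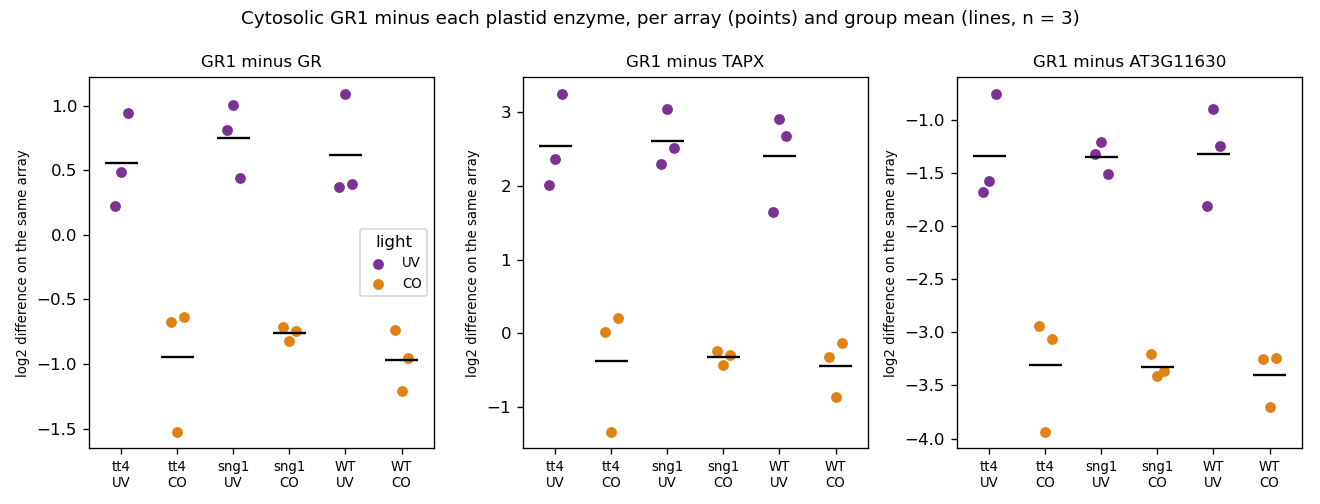
Log2 signal of GR1 minus that of GR, TAPX and AT3G11630 (1 panel each) on the same array, by group; points are plants and lines are group means (n = 3). UV plants lie above CO plants in all panels, with GR1 minus TAPX between 1.64 and 3.24 in UV and between -1.33 and 0.21 in CO.

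Single plants also differed in GR1 and TAPX within a light. Among the 9 UV plants, GR1 and TAPX ran against each other (Pearson r = -0.82, permutation p = 0.00609, adjusted p = 0.0731; Spearman rho = -0.90, permutation p = 0.00216, adjusted p = 0.0259). The adjustment covered 12 relations, the 6 pairs of members in each light, so the relation passed by rank and not by Pearson's r. Without the 2 plants farthest from the median of GR1, r was -0.65. The plant with most GR1, tt4_UV 3, had least TAPX, and WT_UV 1, with least GR1, had most TAPX.

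Among the 9 CO plants r was -0.73 (permutation p = 0.026, adjusted p = 0.156) and rho was -0.43 (permutation p = 0.25, adjusted p = 0.807). The plants with least GR1, tt4_CO 2 and WT_CO 2, had most TAPX. Without tt4_CO 2 and tt4_CO 3, the 2 plants farthest from the median of GR1, r was -0.29, so the value rested on those plants. As deviations from their group means, GR1 and TAPX lay on opposite sides in 15 of 18 plants, with r = -0.81 as a description; 1.06% of probe sets had a lower r with GR1. Of the other 10 relations, none passed the adjustment in this permutation test, and none had an unadjusted p under 0.05. These correlations share arrays, so a difference between arrays in RNA or hybridization would enter both axes, and this was not tested.

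**Figure D4:**
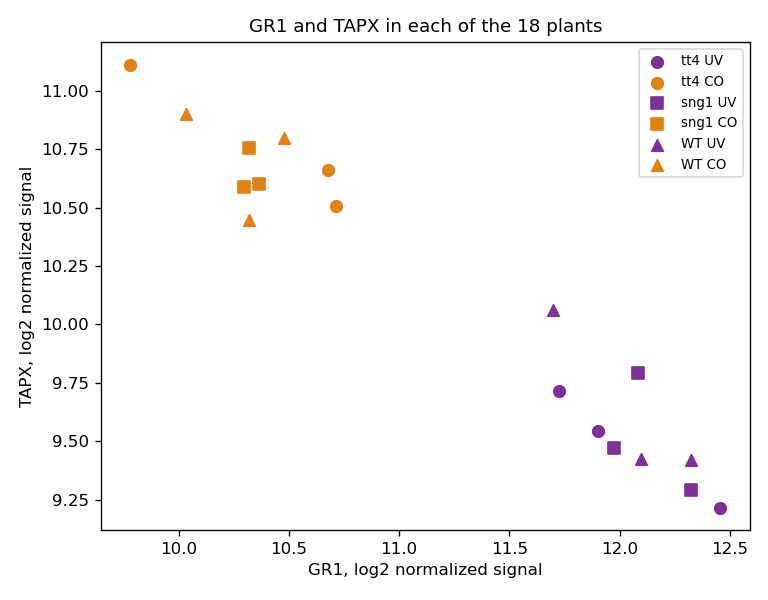
Log2 signal of TAPX against that of GR1, a point per plant, by light and genotype. The 9 UV plants and the 9 CO plants form separate clouds, and within UV plants TAPX is lower where GR1 is higher (rho = -0.90).

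The mutations changed none of the 4 transcripts by the test. Over 8 comparisons (each mutant against WT and tt4 against sng1 in each light, and each mutant's UV effect against that of WT), 0 of 32 member values were called by limma, and the smallest adjusted p was 0.701. Calls were rare over all probe sets too. For tt4 against WT 0.0132% were called in UV and 0.022% in CO, for sng1 against WT 0.022% in UV and 0.00879% in CO, and for tt4 against sng1 0.0264% in UV and 0.0484% in CO. The UV effect differed from that of WT for 0.0044% of probe sets in tt4 and for 0% in sng1. Of the 32 values, 1 had an unadjusted p under 0.05: GR was higher in tt4_CO than in sng1_CO (0.25 ± 0.10, limma adjusted p = 0.701). All values lay between -0.19 and 0.25. Their 95% intervals reached from -0.90 to 0.81 for GR1, from -0.84 to 0.60 for TAPX, from -0.37 to 0.46 for GR and from -0.29 to 0.40 for AT3G11630, so larger differences were left possible for GR1 and TAPX than for the others.

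Around these enzymes, 8 lists of antioxidant genes held 74 genes, of which 20 had a named probe set, the 4 members included. In the averaged effect 4 of the 20 rose, 7 fell and 9 were not called, with a median of -0.07 beside 0 for all probe sets. In tt4, 2 rose and 7 fell, against 12.7% and 14.1% of all probe sets. In sng1, 2 rose and 4 fell (11.9% and 11.6% of all), and in WT 1 rose and 5 fell (12.5% and 11.9% of all). By place in the cell, 3 of 12 genes of plastid enzymes rose and 6 fell, with GR and SAPX, whose products are shared with mitochondria, counted there. Of 4 genes listed as cytosolic 1 rose and 1 fell. Of the other 4, PRXIIF, GLDH, CCS and VTC4, 0 were called, and the list gave CCS and VTC4 no compartment by name. These are limma calls in the averaged effect, in which 20.9% of all probe sets rose and 22% fell, and 1 of the last 4, PRXIIF, had an unadjusted p under 0.05. Under median centring, and likewise under array weights, PRXIIF was called. The listed genes without a named probe set were not analysed here, among them all 8 glutathione peroxidase-like enzymes.

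Of 8 ascorbate peroxidases, SAPX was the other one measured. It encodes the peroxidase shared by the chloroplast stroma and mitochondria, a close relative of TAPX, and it moved the other way. SAPX stood at 2985, 2363 and 3810.3 in tt4_UV, against 1915, 1243 and 3100.3 in tt4_CO. In sng1 it stood at 2177, 2506 and 3224 in UV, against 1527, 1752 and 1820.4 in CO, and in WT at 2022, 3274 and 3889 in UV, against 1726, 1549 and 1921 in CO. The plants of tt4 overlapped, through the high value of tt4_CO 3, and those of sng1 and WT did not (41.1% and 34.8% of probe sets).

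SAPX rose 1.59-fold averaged over genotypes (0.67 ± 0.18, limma adjusted p = 0.00775), and it passed in no single genotype (0.62 in tt4, 0.62 in sng1 and 0.77 in WT, adjusted p of 0.172, 0.186 and 0.0899). The within-array difference of TAPX and SAPX averaged -1.93 ± 0.57 in UV plants (-2.68 to -0.92) and -0.09 ± 0.53 in CO plants (-1.09 to 0.83; SD, n = 9 each), and the lights overlapped. Of 8 genes for monodehydroascorbate and dehydroascorbate reductases, which regenerate ascorbate, ATMDAR2 was measured, and its value was 0.04 ± 0.10 (limma adjusted p = 0.826).

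**Figure D5:**
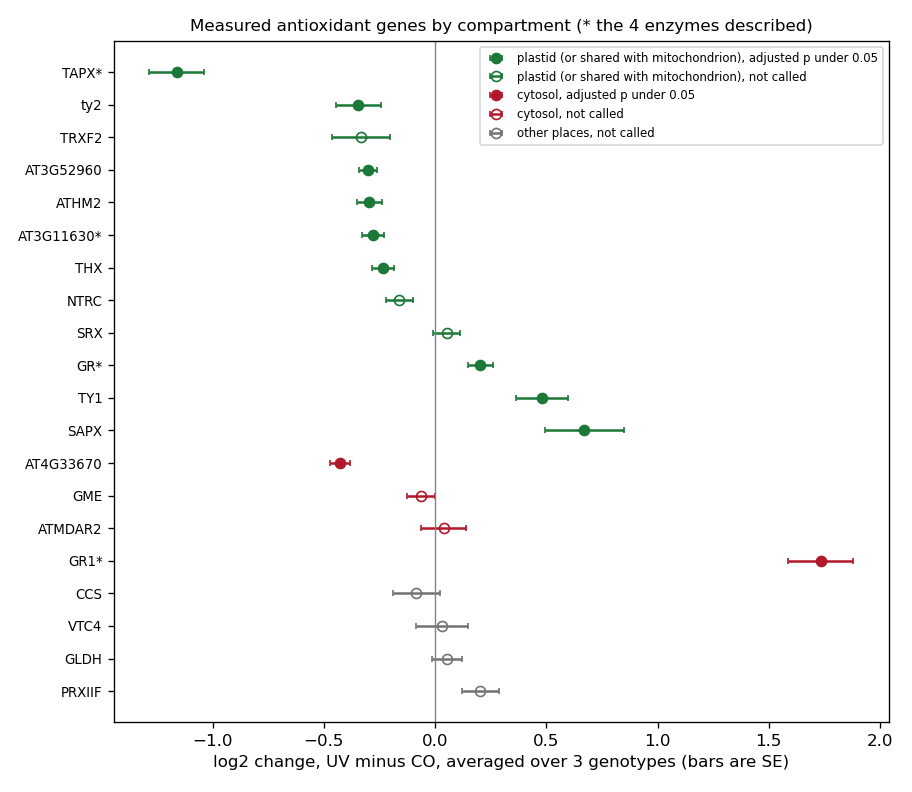
UV minus CO log2 change averaged over 3 genotypes for the 20 measured antioxidant genes, with bars of 1 SE, grouped by compartment; filled points passed the test and asterisks mark the 4 enzymes described. GR1 is highest at 1.73 and TAPX lowest at -1.16, and the other genes lie between -0.43 and 0.67.

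Among peroxiredoxins and their reductants, 5 of 12 were measured. AT3G52960, the plastid type II peroxiredoxin E, fell as AT3G11630 did (-0.30 ± 0.04, limma adjusted p = 4.73e-05), and by genotype it was called in tt4 (-0.42) and WT (-0.33) and not in sng1 (-0.14). The mitochondrial PRXIIF had 0.20 ± 0.08 (adjusted p = 0.0633). NTRC, the plastid NADPH-dependent reductase of 2-Cys peroxiredoxins, had -0.16 ± 0.06 (adjusted p = 0.0504), and in tt4 it was called lower (-0.34, adjusted p = 0.0309). Whether the UV effect on AT3G52960 or NTRC differed between genotypes was not shown, since no interaction was called for either gene.

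Thioredoxins carry reducing power to peroxiredoxins and other plastid enzymes, and 5 of 16 were measured. ATHM2, an m-type thioredoxin, fell by 0.29 (SE 0.05, limma adjusted p = 0.000589), and THX, the x-type thioredoxin, fell by 0.23 (SE 0.05, adjusted p = 0.0017). The y-type pair went opposite ways: TY1 rose (0.48 ± 0.12, adjusted p = 0.00415) and ty2 fell (-0.35 ± 0.10, adjusted p = 0.0132). In ascorbate synthesis 4 of 7 genes were measured. AT4G33670, the cytosolic L-galactose dehydrogenase, fell in tt4 (-0.49), sng1 (-0.36) and WT (-0.45), and averaged -0.43 ± 0.04 (limma adjusted p = 5.74e-06). GME, GLDH and VTC4, of the same route, lay between -0.06 and 0.06 and were not called.

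By the pattern over all 18 arrays, the probe sets most like GR1 among 12600 with 1 named gene were AT2G25530 (r = 0.986), AT3G15180 (0.986) and SDH1-1 (0.983), the last a subunit of mitochondrial succinate dehydrogenase. Those most like TAPX were AT3G16370 (0.988), AT1G29670 (0.987) and AT3G18050 (0.984), and those most like AT3G11630 were AT4G17560 (0.951), AT1G53800 (0.949) and the plastid ribosomal protein gene rpl33 (0.945). GR had no such close partner: AT4G38780 (0.899), AT5G43560 (0.882) and AME3 (0.853) came nearest. An r over 0.9 was reached by 381 probe sets with GR1, 533 with TAPX, 59 with AT3G11630 and 0 with GR. The arrays fall into the lights, so these values, given as a description with no test, largely carry the light difference that many probe sets share.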

How the data were processed

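Labelled RNA from the aerial region of single plants was hybridized to 18 arrays, per the labels' protocols. The deposited intensities were linear, 22810 per array, ranging from 0.01305 to 36001; from the values, the authors had scaled each array to a mean of 500 after trimming 2% at either end. No label names the software or background method. Titles carry a running code in which all UV arrays precede all CO arrays, so its order and the light cannot be told apart.

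After quantile normalization, values under 16 were set to 16 (17.5% to 17.6% of an array), log2 was taken, and 64 control probe sets were removed. limma 3.58.1 (R 4.3.3) was fitted with 6 group coefficients and 12 residual degrees of freedom, with Benjamini-Hochberg adjustment over 22746 probe sets in each of 12 comparisons. The number of arrays limits the precision. The fit was tested on simulated data, and the outcome is not given here. Exact permutation tests (Python 3.11.15) covered within-array differences and correlations.

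Genes were named through the platform annotation, which is old, with loci and symbols from RefSeq's table (assembly TAIR10.1): 13513 probe sets had 1 gene, 503 several, and 8730 were not listed. The members and lists were chosen with earlier results of these data known. The genes named are the 4 members, up to 4 measured genes a list with the smallest adjusted p in the averaged effect, and the 3 probe sets most like each member. TRXF2 and NTRC's value in tt4 lie outside that rule and were picked with the values in view. The list of 14 DNA damage genes had 1 measured gene, ATLIG4 (0.71 in the averaged effect, called higher). Alternatives tried were other scalings, floors and filters, a replicate block, array weights, eBayes options, separate fits per genotype, and leaving out each array.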

Additional observations from a re-analysis of the deposited data

How the results depend on the processing

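GR1 and TAPX kept their direction in every alternative, and their calls in all except the fits to 6 arrays named below. The 3 within-array differences kept both throughout (exact permutation p of 0.00025 to 0.00391). As GR1 alone separated the lights, this adds little to the rise of GR1. With floor 64, UV minus CO of GR in sng1 was 0.29 with an adjusted p of 0.0502, and with a filter on 3 arrays above the floor 0.29 with 0.0752. Array weights brought AT3G11630 in sng1 to -0.21 (adjusted p = 0.0291). Fits to the 6 arrays of a genotype have fewer samples. Called probe sets were 3023 against 6080 in tt4 and 2929 against 5540 in WT. In sng1 the alternatives, this fit included, gave 3880 to 7748 against 5350. The lowest of these counts came from leaving out 1 array (3880 to 5534), and the highest did not. In the fits to 6 arrays, GR1 in tt4 was at 1.64 (limma adjusted p = 0.0501) and AT3G11630 in tt4 at -0.34 (0.0745). GR in sng1 was at 0.29 (0.0654), TAPX in WT at -1.08 (0.0531) and AT3G11630 in WT at -0.32 (0.103). Leaving out 1 array at a time gave -0.40 to -0.25 for AT3G11630 in WT and 0.21 to 0.34 for GR in sng1. Counts of genotype calls, all small, moved most. With all arrays they were 3 for tt4 minus WT in UV and 5 in CO, 5 for sng1 minus WT in UV and 2 in CO, 6 for tt4 minus sng1 in UV and 11 in CO, 1 for the tt4 interaction and 0 for that of sng1. Leaving out arrays, they ran in the same order from 2 to 13, 0 to 16, 3 to 12, 2 to 21, 5 to 12, 4 to 20, 1 to 6 and 0 to 6. For sng1 minus WT in UV, sng1 minus WT in CO and tt4 minus sng1 in CO they were 2, 5 and 6 with median centring and 3, 8 and 4 on values as deposited. Floor 64 gave 3 for tt4 minus WT and 5 for tt4 minus sng1, both in CO; the filter gave 1 for tt4 minus WT in CO, 3 for sng1 minus WT in UV and 4 in CO; array weights gave 9 for sng1 minus WT and 21 for tt4 minus sng1, both in CO. No member value was called in any of these genotype comparisons. The sign of 2 genes that were not called turned: VTC4 was -0.035 with array weights and ran from -0.057 to 0.084 without single arrays, and ATMDAR2 from -0.0047 to 0.10. Some listed genes that were not called in the averaged effect passed in a few alternatives: PRXIIF stayed uncalled in 20 of 25 (adjusted p of 0.0356 to 0.125), NTRC in 20 of 25 (0.0187 to 0.321) and TRXF2 in 17 of 25 (0.0225 to 0.112). The other listed genes kept their side of the threshold. The cause of these shifts was not tested.

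Replicate numbers are shared by the groups, and the labels do not say what else same-numbered plants share. Of 21 correlations of same-numbered deviations, 6 were over 0.1 (-0.24 to 0.39). In the other light, 3 of 18 arrays correlated best with their own number, and these were 3 of the 6 tt4 arrays. Whether same-numbered plants were handled together was not tested. With the replicate block, calls were 0 for tt4 minus WT in CO, 3 for sng1 minus WT in UV and 3 for tt4 minus sng1 in CO, and no member's call changed.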

Other observations

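CCS encodes the copper chaperone that loads copper into superoxide dismutases, and it was the 1 measured gene of 11 for superoxide dismutases and catalases. It stood at 123, 153 and 148 in tt4_UV, against 179, 192 and 247 in tt4_CO. In sng1 it stood at 173, 218 and 187 in UV, against 193, 163 and 149 in CO, and in WT at 153, 153 and 220.5 in UV, against 199, 157 and 137 in CO. The lights were apart in tt4, as they were for 33.8% of all probe sets there, and overlapped in sng1 and WT. CCS fell in tt4 (-0.54 ± 0.18, limma adjusted p = 0.0443), where 14.1% of all probe sets were called lower. Its values were 0.19 in sng1 (adjusted p = 0.532), 0.09 in WT (0.84) and -0.09 averaged over genotypes (0.579). The tt4 UV effect minus that of WT was -0.63 (limma adjusted p = 1), so a difference between genotypes was not shown.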
